A study of Homo sapiens with 9 samples.

Results

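The genes described are 10 members of the BCL2 family in MOLT4, an established human line from T-cell acute lymphoblastic leukemia (T-ALL): BCL2, BCL2L1, MCL1, BCL2L11, BBC3, PMAIP1, BAX, BAK1, BID and BAD. They were found as the rows of the deposited expression table whose gene symbol equals one of these names, and all 10 were present among its 23621 gene rows. MOLT4 cells were treated for 6 h, with 3 libraries in each of 3 groups: vehicle (0.1% DMSO), sunitinib, a kinase inhibitor, and MI-389, a phthalimide conjugate. GSPT1, which ends translation at stop codons, is given in the series title as an off-target of phthalimide degraders. The comparisons ask which survival and death genes differed from vehicle after each treatment, and which differed between treatments.

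Compound names are crossed in the labels. The source field reads sunitinib at 1 µM where the title reads MI-389, and MI-389 at 0.1 µM where the title reads sunitinib. The names of the table's columns follow the titles, so libraries are called here by their titles, and which compound and dose each treated group received cannot be told apart from these labels. Doses differ between the treated groups under either naming. All cells were 1 line, and the labels do not say whether replicates were separate cultures, so p-values measure the spread between these libraries, which may be technical.

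BCL2 family proteins decide whether the outer membrane of the mitochondrion stays intact. Guardians (BCL2, BCL-XL from BCL2L1, and MCL1) hold the effectors BAX and BAK1 in check, and BH3-only proteins (BIM from BCL2L11, PUMA from BBC3, NOXA from PMAIP1, BID and BAD) bind guardians, and some of them also effectors, to release this hold. Once BAX or BAK1 forms pores, cytochrome c leaves the mitochondrion and activates caspases. In T-cell leukemia, the balance between BIM and the guardians is known to set the response to glucocorticoids, and NOXA is known for its selective binding of MCL1.

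Values are deposited FPKM (by definition fragments per kilobase of transcript, scaled to library size), which are per length, so levels can be compared between genes. Any further normalization across libraries is not given, so a difference may not be one in the share of a library. Within a group, libraries correlated at a Pearson r of at least 0.9946 across genes (log2). Across groups, r reached at most 0.975 for the MI-389 title and 0.994 for the sunitinib title. All 15 T-lineage markers were at 1 FPKM or more on average. Their summed level ranged from 4480 to 5568 FPKM in DMSO, from 4197 to 4457 in the libraries titled MI-389 and from 4806 to 5049 in those titled sunitinib. None of 5 myeloid markers, 1 of 4 B-cell markers (CD79A) and 1 of 7 epithelial and fibroblast markers (KRT8) reached 1 FPKM in DMSO. Their summed levels over all libraries were 0.889 to 1.18, 6.98 to 10.1 and 2.20 to 3.49 FPKM, and the part of any marker list in the results below was not tested. The table gives no read counts, so depth is unknown and no counting interval can be given. Steps among its lowest values gave a depth relative to DMSO of about 1.39 for the libraries titled MI-389 (79 genes) and 1.34 for those titled sunitinib (94 genes). In bulk samples, fewer cells of a type and less RNA per cell cannot be told apart.

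In the libraries titled MI-389, PMAIP1 rose 3.03-fold, MCL1 rose 1.36-fold, BCL2 1.26-fold and BBC3 2.04-fold, while BCL2L11 fell 1.99-fold, BID 1.31-fold, BAX 1.27-fold and BCL2L1 1.12-fold. BBC3 reached the minimum level for testing only through these libraries, so its call there is not set beside those of the others as support. In the libraries titled sunitinib, BCL2 fell 1.56-fold, BCL2L11 1.42-fold, BID 1.22-fold and PMAIP1 1.19-fold, and no member rose. Folds are ratios of mean FPKM, and a gene is said to rise or fall where limma's adjusted p was at most 0.05. With limma and Benjamini-Hochberg adjustment over the 12301 genes that averaged 1 FPKM or more, 8 of 10 members were called in the libraries titled MI-389 against DMSO, 4 higher and 4 lower, beside 56.7% of all tested genes (28.5% higher and 28.3% lower). Without BBC3 it was 7 of 9, with 3 higher and 4 lower. Most tested genes were called as well, so the count says little about the members, and sizes and directions of single members are given below. In the libraries titled sunitinib, 4 of 10 members were called, all lower, beside 19.3% of tested genes (2.37% higher and 16.9% lower). Between the treated groups, 9 of 10 members were called, 4 higher and 5 lower in the libraries titled MI-389, beside 56.3% of tested genes (36.0% higher and 20.3% lower), and without BBC3 it was 8 of 9. The 3 libraries of a group did not overlap with those of the other group for 8 members in MI-389 against DMSO (60.2% of tested genes), for 4 in sunitinib against DMSO (35.2%) and for all 10 between the treated groups (69.4%). BBC3, which reached the minimum level only through the libraries titled MI-389, is among those 8 and those 10 and adds no support there. Both treated groups were set against the same 3 DMSO libraries.

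**Figure D1:**
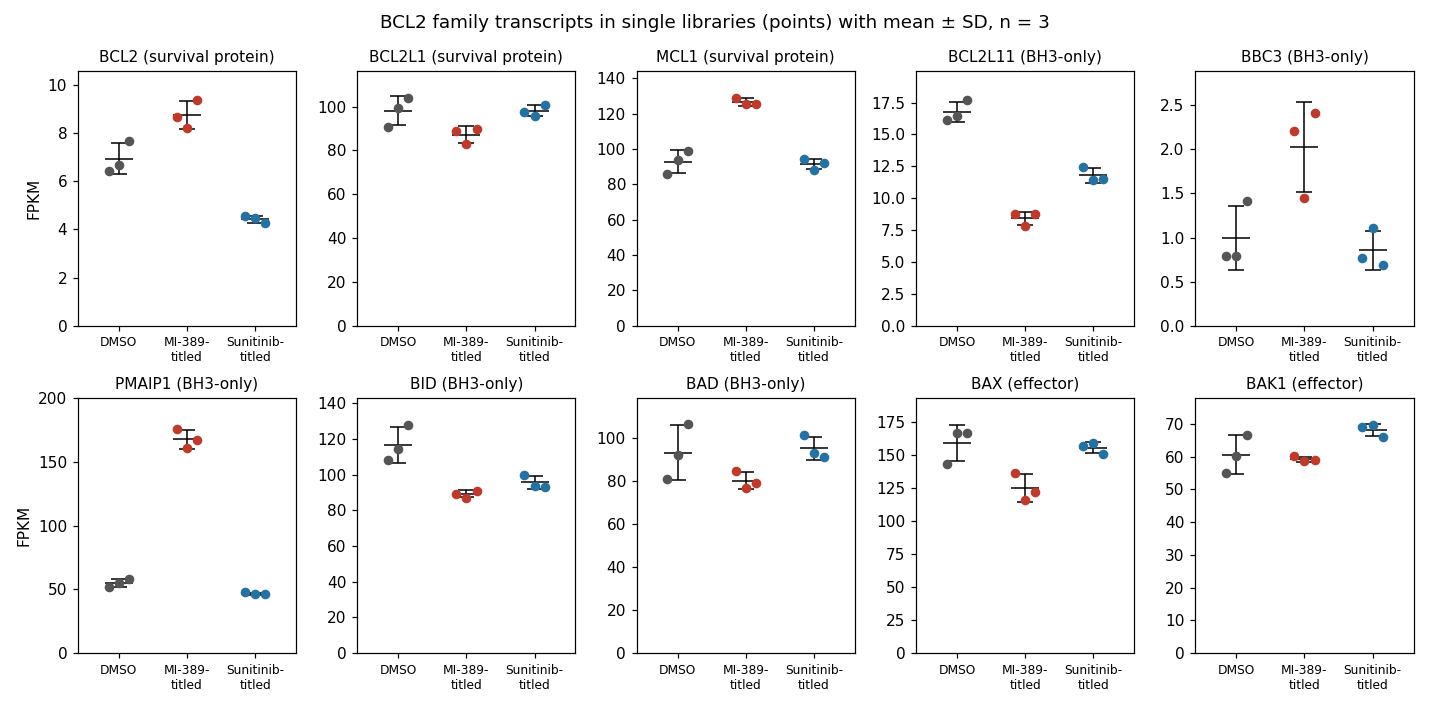
FPKM of each of the 10 members (1 panel each, y axes from 0 and on their own scales) in the 3 libraries of each group, with points for libraries and bars for the mean and SD. PMAIP1 stood at 161 to 176 FPKM in the libraries titled MI-389 and at 52.2 to 58.4 in DMSO, and BCL2L11 stepped down from DMSO over the libraries titled sunitinib to those titled MI-389.

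Promoters are shown for the 4 members whose messenger RNA moved most against DMSO in either comparison, so that the text below can refer to them. They span 250 bases before to 50 bases after the annotated start, which is position 0, are written 5′ to 3′ on the gene's strand, and come from RefSeq on GRCh38.p14, matched by symbol. Of the 10 members, 9 had 15 entries among 35116 promoters, and MCL1 had none. Capitals mark matches, on either strand, to TGACGTCA (ATF/CREB element), its core TGACGT, TGATGNAA (C/EBP-ATF element), TGANTCA (AP-1 element), CACGTG (E-box) or GTAAACA (FOXO element). PMAIP1 lies at chr18:59899746-59900045 (plus strand), BCL2L11 at chr2:111120664-111120963 (plus strand), BBC3 at chr19:47232618-47232917 (minus strand) and BCL2 at chr18:63319720-63320019 (minus strand).
PMAIP1: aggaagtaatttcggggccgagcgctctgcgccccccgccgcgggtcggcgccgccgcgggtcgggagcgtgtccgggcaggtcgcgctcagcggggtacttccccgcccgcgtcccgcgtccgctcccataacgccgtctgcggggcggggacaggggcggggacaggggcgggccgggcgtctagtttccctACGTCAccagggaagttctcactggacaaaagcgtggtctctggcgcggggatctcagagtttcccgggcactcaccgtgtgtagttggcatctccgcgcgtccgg
BCL2L11: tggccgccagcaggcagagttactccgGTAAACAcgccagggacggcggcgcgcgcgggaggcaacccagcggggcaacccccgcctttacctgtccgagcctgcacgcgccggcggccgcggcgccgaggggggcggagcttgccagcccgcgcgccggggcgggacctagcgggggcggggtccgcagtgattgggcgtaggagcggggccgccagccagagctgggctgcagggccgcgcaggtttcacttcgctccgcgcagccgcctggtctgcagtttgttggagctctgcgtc
BBC3: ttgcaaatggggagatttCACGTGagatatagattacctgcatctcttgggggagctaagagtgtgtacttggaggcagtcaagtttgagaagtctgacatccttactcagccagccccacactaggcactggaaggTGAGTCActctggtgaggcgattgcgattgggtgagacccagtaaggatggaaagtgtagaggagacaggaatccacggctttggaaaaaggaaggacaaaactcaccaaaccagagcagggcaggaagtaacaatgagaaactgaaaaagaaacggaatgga
BCL2: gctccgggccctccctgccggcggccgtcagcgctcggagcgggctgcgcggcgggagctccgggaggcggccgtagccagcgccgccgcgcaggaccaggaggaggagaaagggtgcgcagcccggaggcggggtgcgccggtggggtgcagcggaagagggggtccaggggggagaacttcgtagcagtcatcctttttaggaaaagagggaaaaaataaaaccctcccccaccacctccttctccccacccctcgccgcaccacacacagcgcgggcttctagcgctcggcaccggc

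The PMAIP1 window held 1 match to TGACGT, read as ACGTCA from −56, and 4 GC boxes (GGGCGG). The TGACGT core occurred in 7.98% of all promoters of this length and the full TGACGTCA, which contains it, in 1.85%, and the short core was added to the search after this window had been read. The BCL2L11 window held GTAAACA at −223 (3.42% of promoters) and 3 GC boxes. The BBC3 window held TGAGTCA at −113, a match to TGANTCA (7.71%), and CACGTG at −232 (7.26%). The BCL2 window held none of the 6 motifs marked by capitals. Among the members not printed, BAX had 4 matches to CACGTG, at −138, −93, −45 and −14. Both entries of BAD, whose windows overlap, held the same TGACGT site. In BID, 2 of the 5 entries, whose windows overlap, held the same CACGTG site, at −106 and −47 from their own starts. TGATGNAA, found in 3.62% of promoters, and the full TGACGTCA matched no member's window, while GGGCGG occurred in 45.0% of promoters. By base composition, the windows of PMAIP1 (71.3% G or C), BCL2L11 (74.7%) and BCL2 (70.7%) lay above the median promoter (58.7%), and that of BBC3 (48.0%) lay below it. A match describes letters only, and the letters outside these windows were not searched.

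Among guardians, MCL1 is short-lived as messenger RNA and protein, and its product is the chief partner of NOXA. MCL1 stood at 85.7, 93.9 and 98.9 FPKM in DMSO, at 129, 125 and 125 in the libraries titled MI-389 and at 94.3, 88.3 and 91.8 in those titled sunitinib. All 3 libraries titled MI-389 lay above every other library, and DMSO and sunitinib overlapped. The mean was 92.9 ± 6.63 FPKM in DMSO and 127 ± 2.08 with the MI-389 title (SD, n = 3), a log2 difference of 0.45 (SE 0.0587, 95% interval 0.31 to 0.58, limma adjusted p = 0.000165). In the sunitinib-titled libraries it was −0.019 (−0.15 to 0.11, adjusted p = 0.847), and it turned to 0.11 with quantile-normalized values (adjusted p = 0.0115) and to 0.11 with cyclic loess (adjusted p = 0.0160). MCL1 was 1.38-fold higher with the MI-389 title than with the sunitinib title (log2 difference 0.46, adjusted p = 0.000121).

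BCL2, the founding guardian, was the lowest of the 3 in every group and the only one that differed from DMSO in both treated groups. It stood at 6.43, 6.68 and 7.65 FPKM in DMSO, at 8.64, 8.21 and 9.36 in the libraries titled MI-389 and at 4.56, 4.46 and 4.26 in those titled sunitinib. The 3 groups did not overlap, with the MI-389 title highest and the sunitinib title lowest. Means were 6.92 ± 0.645, 8.74 ± 0.582 and 4.42 ± 0.149 FPKM (SD, n = 3) for DMSO, MI-389 and sunitinib. BCL2 rose by 0.30 on the log2(FPKM + 1) scale with the MI-389 title (0.12 to 0.48, limma adjusted p = 0.00972). It fell by 0.54 with the sunitinib title (−0.72 to −0.36, adjusted p = 0.00342), where 1.79% of tested genes lay as low or lower. BCL2 differed 1.98-fold between the treated groups (log2 difference 0.84, adjusted p = 2.06e-05).

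BCL2L1, which encodes BCL-XL, stood at 90.9, 99.3 and 104 FPKM in DMSO, at 88.9, 82.8 and 89.8 with the MI-389 title and at 97.6, 95.8 and 100.9 with the sunitinib title. The libraries titled MI-389 were lowest, with the highest of them just under the lowest DMSO library. The log2 difference from DMSO was −0.17 (−0.30 to −0.03, limma adjusted p = 0.0389). Leaving out any library but DMSO replicate 1 ended this call, with adjusted p from 0.0565 without sunitinib-titled replicate 2 to 0.138 without MI-389-titled replicate 2. For the sunitinib title the difference was 0.0023 (−0.13 to 0.14, adjusted p = 0.989), and the sign turned without DMSO replicate 1 (−0.051) and without sunitinib-titled replicate 3 (−0.018). MI-389 against sunitinib gave −0.17 (adjusted p = 0.0371), a call also lost without DMSO replicate 2 (0.0535), without sunitinib-titled replicates 1 (0.0803), 2 (0.0630) or 3 (0.122), or without MI-389-titled replicates 1 (0.0653), 2 (0.132) or 3 (0.0569). Summed over the 3 guardians, levels were 198 ± 13.8 FPKM in DMSO, 222 ± 5.40 with the MI-389 title and 194 ± 4.67 with the sunitinib title (SD, n = 3).

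Among BH3-only genes, PMAIP1 had the largest absolute difference of any member in the libraries titled MI-389. It stood at 52.2, 55.3 and 58.4 FPKM in DMSO, at 176, 161 and 167 with the MI-389 title and at 47.5, 46.2 and 46.0 with the sunitinib title. The 3 groups did not overlap, and the libraries titled MI-389 were far above the rest. Means were 55.3 ± 3.09, 168 ± 7.48 and 46.6 ± 0.830 FPKM (SD, n = 3) for DMSO, MI-389 and sunitinib. The log2 difference between MI-389 and DMSO was 1.58 (SE 0.0558, 1.46 to 1.71, limma adjusted p = 5.49e-08), and 1.33% of tested genes rose as much or more. PMAIP1 with the sunitinib title differed by −0.24 (−0.37 to −0.12, adjusted p = 0.0176), a call lost without DMSO replicate 2 (0.0520), sunitinib-titled replicate 2 (0.0699) or sunitinib-titled replicate 3 (0.0726). The treated groups differed 3.60-fold (log2 difference 1.82, adjusted p = 3.13e-08). The printed PMAIP1 promoter holds 4 GC boxes and ACGTCA, a core added to the search after this window was read. The BAD windows hold that core too, and a link between these letters and the levels was not tested.

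BCL2L11 encodes BIM, a BH3-only protein that binds all guardians and can engage the effectors directly. It stood at 16.2, 16.4 and 17.7 FPKM in DMSO, at 8.73, 7.84 and 8.75 with the MI-389 title and at 12.5, 11.5 and 11.5 with the sunitinib title. The groups did not overlap, and the direction was opposite to that of PMAIP1 in the libraries titled MI-389 and the same in those titled sunitinib. Means were 16.8 ± 0.811, 8.44 ± 0.521 and 11.8 ± 0.585 FPKM (SD, n = 3) for DMSO, MI-389 and sunitinib. The log2 difference was −0.91 with the MI-389 title (SE 0.0658, −1.06 to −0.76, limma adjusted p = 4.38e-06), where 1.98% of tested genes lay as low or lower. It was −0.47 with the sunitinib title (−0.62 to −0.32, adjusted p = 0.00302), where the share was 2.89%. BCL2L11 was 1.40-fold lower with the MI-389 title than with the sunitinib title (log2 difference −0.44, adjusted p = 0.000347).

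BBC3, which encodes PUMA, was the lowest member in every group. It stood at 0.786, 0.786 and 1.41 FPKM in DMSO, at 2.20, 1.45 and 2.42 with the MI-389 title and at 0.766, 1.11 and 0.688 with the sunitinib title. The lowest library titled MI-389 lay just above the highest DMSO library, and DMSO and sunitinib overlapped. BBC3 averaged 0.994 ± 0.360 FPKM in DMSO, 2.02 ± 0.510 with the MI-389 title and 0.855 ± 0.225 with the sunitinib title (SD, n = 3), so it passed the minimum of 1 FPKM only through the libraries titled MI-389. The log2(FPKM + 1) difference between MI-389 and DMSO was 0.60 (SE 0.183, 0.19 to 1.01, limma adjusted p = 0.0186), on a scale that understates the change of low genes. The fit with no filter, which did not select BBC3 by its level, gave an adjusted p of 0.0371. The call was lost without DMSO replicate 1 (0.0530), DMSO replicate 2 (0.0586), MI-389-titled replicate 1 (0.0598) or MI-389-titled replicate 3 (0.0722). For sunitinib against DMSO the difference was −0.10 (−0.51 to 0.31, adjusted p = 0.749), an interval that holds changes of either sign, and it was 0.048 without DMSO replicate 3. For MI-389 against sunitinib it was 0.70 (adjusted p = 0.00906, and 0.0205 with no filter).

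BID, which caspase-8 cleaves to link death receptors to mitochondria, was the BH3-only gene of highest level in DMSO. It stood at 108, 114 and 128 FPKM in DMSO, at 89.4, 87.2 and 91.1 with the MI-389 title and at 99.9, 94.0 and 93.2 with the sunitinib title. Both treated groups lay wholly below DMSO. BID fell by 0.38 on the log2 scale with the MI-389 title (−0.53 to −0.24, limma adjusted p = 0.000787) and by 0.28 with the sunitinib title (−0.43 to −0.14, adjusted p = 0.0172). The second call was lost without sunitinib-titled replicate 2 (0.0695) or 3 (0.0717). The treated groups differed by −0.10 (−0.25 to 0.05, adjusted p = 0.221), although their libraries did not overlap.

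BAD, a BH3-only protein kept inactive by phosphorylation, stood at 81.1, 92.1 and 106 FPKM in DMSO, at 84.3, 76.7 and 79.1 with the MI-389 title and at 101, 92.9 and 91.0 with the sunitinib title. The DMSO libraries overlapped with both treated groups, which did not overlap with each other. The log2 difference was −0.21 with the MI-389 title (−0.41 to −0.0034, limma adjusted p = 0.0771) and passed the threshold without DMSO replicate 1 (−0.30, adjusted p = 0.00675), after median centring (adjusted p = 0.00149), after quantile normalization (0.0194) and with robust variance (0.0216). For sunitinib against DMSO it was 0.036 (−0.17 to 0.24, adjusted p = 0.812) and turned to −0.058 without DMSO replicate 1 and to −0.0090 without sunitinib-titled replicate 1. The treated groups differed in BAD by −0.24 (adjusted p = 0.0438). That call was lost without DMSO replicate 2 (0.0599), without sunitinib-titled replicates 1 (0.140), 2 (0.0770) or 3 (0.0591), or without MI-389-titled replicates 1 (0.0509), 2 (0.123) or 3 (0.102). GPR137 overlaps BAD on the opposite strand and stood at 21.3, 23.2 and 19.3 FPKM in DMSO, MI-389 and sunitinib, and since strand is not marked by this library kit, reads of the pair cannot be told apart. Summed over the 5 BH3-only genes, levels were 283 ± 26.9 FPKM in DMSO, 347 ± 13.2 with the MI-389 title and 250.0 ± 10.4 with the sunitinib title (SD, n = 3). From DMSO to the MI-389 title, mean PMAIP1 went from 55.3 to 168 FPKM and mean BBC3 from 0.994 to 2.02. The means of BID, BAD and BCL2L11 were lower with the MI-389 title than in DMSO. The higher sum thus came almost wholly from PMAIP1 and was not a general rise of these 5 genes. It leaves out other BH3-only genes, such as BMF and HRK, which are described below.

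Of the effectors, BAX moves from the cytosol to mitochondria on activation, whereas BAK1 resides there. BAX stood at 143, 167 and 167 FPKM in DMSO, at 137, 116 and 122 with the MI-389 title and at 156, 159 and 151 with the sunitinib title. The libraries titled MI-389 lay below all others. The log2 difference was −0.34 with the MI-389 title (−0.52 to −0.17, limma adjusted p = 0.00415). For the sunitinib-titled libraries it was −0.029 (−0.20 to 0.15, adjusted p = 0.828), and it turned to 0.058 with median centring, 0.084 with quantile-normalized values and 0.11 with cyclic loess, and to 0.0086 without DMSO replicate 2 and 0.0080 without DMSO replicate 3. It was −0.31 between the treated groups (adjusted p = 0.00670).

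BAK1 stood at 55.1, 60.1 and 66.8 FPKM in DMSO, at 60.1, 58.7 and 59.1 with the MI-389 title and at 69.0, 69.6 and 66.0 with the sunitinib title. The libraries titled MI-389 fell within the DMSO range, and those titled sunitinib lay near or above its top. The log2 difference was −0.029 with the MI-389 title (−0.18 to 0.12, limma adjusted p = 0.730), turning to 0.0069 after cyclic loess and to 0.041 without DMSO replicate 3, and reaching the threshold at −0.11 after median centring (adjusted p = 0.0376). The sunitinib title gave 0.17 (0.020 to 0.32, adjusted p = 0.104), and it passed without DMSO replicate 3 (0.24, adjusted p = 0.0231). BAK1 differed between the treated groups by −0.20 (adjusted p = 0.0285), a call lost without sunitinib-titled replicates 1 (0.0776) or 2 (0.0863) or MI-389-titled replicates 1 (0.0578), 2 (0.0731) or 3 (0.0753). Summed over both effectors, levels were 219 ± 18.9 FPKM in DMSO, 184 ± 11.3 with the MI-389 title and 224 ± 6.13 with the sunitinib title (SD, n = 3).

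**Figure D2:**
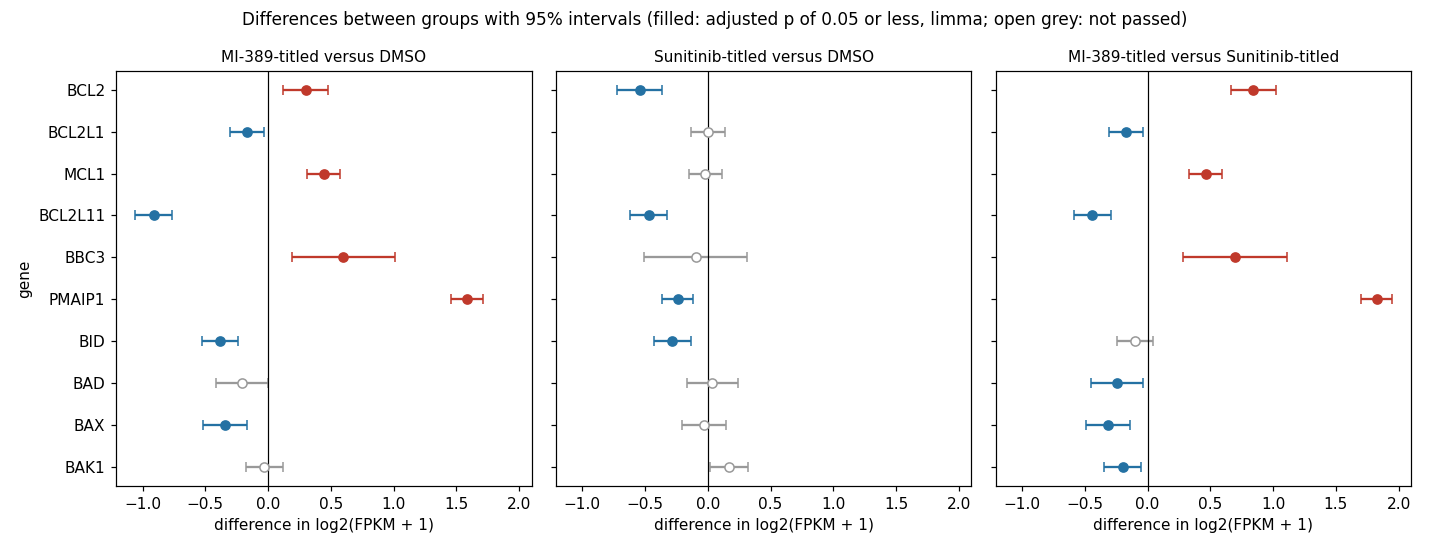
Log2(FPKM + 1) differences of the 10 members in 3 panels (MI-389 against DMSO, sunitinib against DMSO and MI-389 against sunitinib, groups by title), with points for estimates, bars for 95% intervals, filled points for members called by limma and open grey points for members not called. PMAIP1 lay at 1.58 and BCL2L11 at −0.91 in the first panel, and BCL2 was lowest in the second at −0.54.

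Scaling bears on the smaller differences. The median log2 difference over all tested genes was −0.095 in the libraries titled sunitinib and −0.0021 in those titled MI-389, and the median over the 10 members was −0.063 and −0.098. After median centring, 5 members were called in the libraries titled sunitinib, 1 higher and 4 lower. After quantile normalization or cyclic loess, 8 members were called there, 4 higher and 4 lower. The 4 higher were MCL1, BAK1 (0.27 and 0.29), BCL2L1 (0.14 and 0.13) and BAD (0.17 and 0.16). Only 2 members were called there without sunitinib-titled replicate 2 or without sunitinib-titled replicate 3, namely BCL2 and BCL2L11. Across 21 other settings, naming by the source field aside, the direction and call of PMAIP1, BCL2L11, MCL1, BCL2, BAX and BID in MI-389 against DMSO and of BCL2 and BCL2L11 in sunitinib against DMSO stayed as given.

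The order of levels among members differed between groups. In DMSO it ran BAX, BID, BCL2L1, BAD, MCL1, BAK1, PMAIP1, BCL2L11, BCL2 and BBC3 from highest to lowest mean FPKM. Ranges of 3 libraries overlapped there between BCL2L1 and BAD, between BAD and MCL1 and between BAK1 and PMAIP1. With the MI-389 title, PMAIP1 was first, where it ranked 7 in DMSO, followed by MCL1, BAX, BID, BCL2L1, BAD, BAK1, BCL2, BCL2L11 and BBC3. Ranges overlapped there between MCL1 and BAX, between BID and BCL2L1, between BCL2L1 and BAD and between BCL2 and BCL2L11. With the sunitinib title the order was that of DMSO except that BCL2L1 stood above BID, and ranges overlapped between BCL2L1 and BID, BID and BAD, and BAD and MCL1. PMAIP1 made up 7.91% ± 0.227 of the summed FPKM of the 10 members in DMSO, 22.2% ± 0.153 with the MI-389 title and 6.98% ± 0.0323 with the sunitinib title (SD, n = 3). Set against all tested genes in DMSO, BAX lay at percentile 89.5 of mean FPKM, PMAIP1 at 71.2, BCL2L11 at 40.4, BCL2 at 23.0 and BBC3 at 1.70.

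Ratios between members within a library do not change with a single scaling factor per library, though quantile normalization and cyclic loess, which move genes of different level differently, would change them. The ratio of PMAIP1 to MCL1, the messenger RNAs of NOXA and its chief partner, was 0.596 ± 0.0111 in DMSO, 1.32 ± 0.0401 with the MI-389 title and 0.510 ± 0.0118 with the sunitinib title (SD, n = 3). PMAIP1 thus stood above MCL1 in FPKM in the libraries titled MI-389 and below it in all others. BCL2L11 to MCL1, the messenger RNAs of BIM and a guardian that binds it, was 0.181 ± 0.00701, 0.0667 ± 0.00373 and 0.129 ± 0.00379 in DMSO, MI-389 and sunitinib. The ratio of PMAIP1 to BCL2L11 was 3.30 ± 0.0688, 19.9 ± 0.735 and 3.95 ± 0.122 in DMSO, MI-389 and sunitinib. The ratio of BCL2L11 to BCL2 was 2.43 ± 0.105 in DMSO, 0.966 ± 0.0391 with the MI-389 title and 2.67 ± 0.0859 with the sunitinib title, so BIM and BCL2 messenger RNA, which fell together in the libraries titled sunitinib, parted in those titled MI-389. BCL2L1 to BCL2, the balance between these guardians, was 14.2 ± 0.637, 9.99 ± 0.353 and 22.2 ± 1.27. BAX to MCL1 was 1.71 ± 0.0584 in DMSO, 0.986 ± 0.0673 with the MI-389 title and 1.70 ± 0.0863 with the sunitinib title. No test was run on these ratios, which share members with each other.

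**Figure D3:**
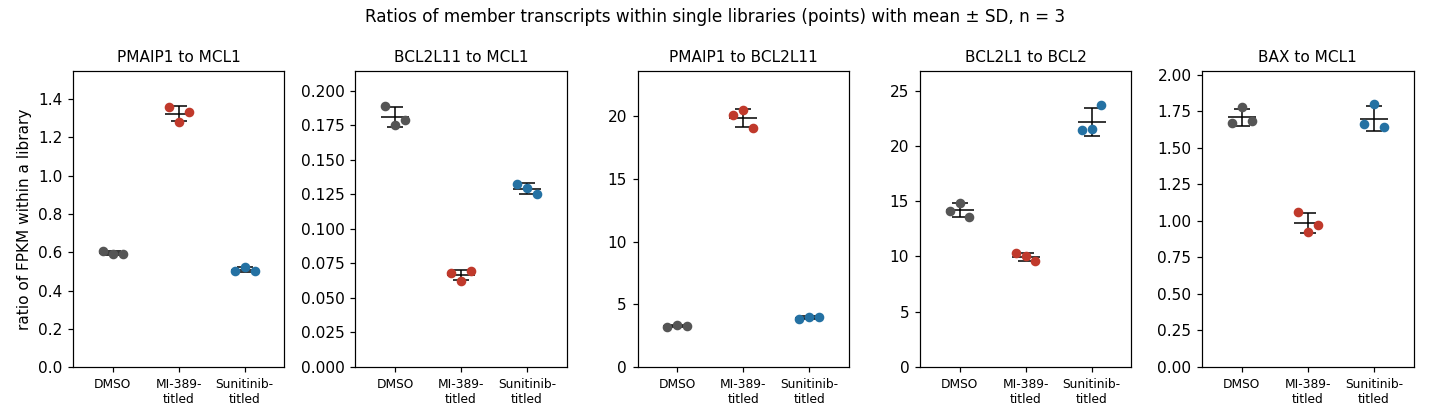
Ratios of FPKM between pairs of members within each library (1 panel per pair), with points for libraries and bars for the mean and SD of 3 libraries per group. PMAIP1 to BCL2L11 was 19.1 to 20.5 in the libraries titled MI-389 and at most 4.03 elsewhere.

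Genes with the most similar profile were sought for the 3 called members with the largest absolute log2 difference in MI-389 against DMSO. Likeness was the root mean square difference, over 9 libraries, of log2(FPKM + 1) relative to the DMSO mean. For PMAIP1, the closest of 10118 candidates were SLC1A5, a glutamine and neutral amino acid transporter (0.0745), ZNF416 (0.0864) and LOC388796 (0.0899), and 29 genes lay within 0.2. SLC1A5 stood at 99.1 FPKM in DMSO, 307 with the MI-389 title and 79.2 with the sunitinib title. For BCL2L11 they were SMC5 (0.0338), PPIF (0.0491), which encodes the mitochondrial cyclophilin of the permeability transition pore, and GEMIN4 (0.0528), and 286 genes lay within 0.2. For BBC3 they were U2AF1L4 (0.102), GPATCH2L (0.119) and LOC399753 (0.121), with 760 genes within 0.2. This scale understates the change of low genes such as BBC3, so that number does not show how common its change in FPKM was. Mean BBC3 was 2.04-fold higher with the MI-389 title than in DMSO, while U2AF1L4 went from 23.4 to 37.0 FPKM. BBC3 entered this search by a call for which it passed the minimum level only through the libraries titled MI-389.

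Of 11 other BCL2 family genes, 7 were tested. In the libraries titled MI-389, BCL2L13 and BMF rose and BNIP3 and BNIP3L fell, with a median log2 difference over the 7 of −0.019. These 4 of 7 calls stand beside 56.7% of all tested genes. BCL2L13, which acts in mitophagy, went from 23.9 ± 2.63 to 40.4 ± 1.41 FPKM (1.69-fold, limma adjusted p = 6.71e-05), and the hypoxia-responsive mitophagy receptor BNIP3 from 75.6 ± 4.78 to 37.9 ± 7.12 (log2 difference −0.99, adjusted p = 0.000136). Its relative BNIP3L went from 70.6 ± 5.22 to 44.9 ± 2.90 FPKM (1.57-fold, adjusted p = 7.22e-05). BMF, a BH3-only gene, stood at 2.61 ± 0.284 FPKM in DMSO, 4.05 ± 0.262 with the MI-389 title (adjusted p = 0.00169) and 4.85 ± 0.399 with the sunitinib title (adjusted p = 0.00287), and was the 1 gene of this list called with the sunitinib title, where 19.3% of all tested genes were called (SD, n = 3). Thus BMF and BCL2L11, both BH3-only, moved in opposite directions in both treated groups. HRK, a BH3-only gene below the minimum for testing, stood at 0.175 ± 0.0683 FPKM in DMSO, 1.19 ± 0.105 with the MI-389 title and 0.254 ± 0.0945 with the sunitinib title. Tested without the minimum, HRK differed by 0.90 with the MI-389 title (adjusted p = 0.000109). The table's floor was 0.0989 to 0.104 FPKM. BCL2A1, a further guardian, averaged 1.69 FPKM in DMSO and 1.33 with the MI-389 title, and BIK 16.1 and 20.5, neither called.

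Downstream of the mitochondrial step, 14 genes were tested. In the libraries titled MI-389, 4 rose and 4 fell, with a median of −0.043 beside −0.0021 over all tested genes, of which 56.7% were called. The 4 that rose were BIRC2, an inhibitor of apoptosis protein (38.6 ± 2.79 to 65.5 ± 3.02 FPKM, 1.70-fold, limma adjusted p = 1.92e-05), DIABLO, which antagonizes such inhibitors (1.31-fold, adjusted p = 7.45e-05), the initiator caspase CASP9 (1.49-fold, adjusted p = 0.000175) and XIAP. Those that fell were BIRC5, the mitotic protein survivin (1.35-fold, adjusted p = 0.000413), CASP6, ENDOG and BIRC3, and the BIRC3 call was lost on leaving out any library but DMSO replicate 2 or MI-389-titled replicate 1, with adjusted p of up to 0.154. XIAP, CASP6, ENDOG and BIRC3 are named only to complete the counts, after their values were seen. APAF1, the scaffold on which cytochrome c activates CASP9, was at 9.37 ± 0.715 FPKM in DMSO and 8.37 ± 0.360 with the MI-389 title (adjusted p = 0.0968). In the sunitinib-titled libraries 1 of the 14 was called (19.3% of all tested genes), CYCS (cytochrome c), which was 1.21-fold lower (adjusted p = 0.0115, 0.0573 without sunitinib-titled replicate 2 and 0.0548 without sunitinib-titled replicate 3).

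Among 8 tested genes for mitochondrial channels and ubiquitin enzymes that bind or turn over family members, 1 rose and 2 fell in the libraries titled MI-389, beside 28.5% of all tested genes called higher and 28.3% lower. MARCH5, a mitochondrial ubiquitin ligase, rose 1.31-fold (limma adjusted p = 0.000148). The outer membrane channels VDAC1 and VDAC3 fell 1.58-fold (adjusted p = 5.06e-05) and 1.33-fold (adjusted p = 0.000560), while VDAC2, known to bind BAK1, was at 278 ± 21.3 FPKM in DMSO and 273 ± 7.36 with the MI-389 title (adjusted p = 0.769). HUWE1, a ligase for MCL1, was at 36.1 ± 4.82 and 41.7 ± 1.58 FPKM (adjusted p = 0.0568). VDAC1 was the only one of these 8 called with the sunitinib title, beside 19.3% of all tested genes, and was 1.21-fold lower (adjusted p = 0.0306). That call was lost without DMSO replicate 2 (0.0862) or 3 (0.0755), without sunitinib-titled replicates 1 (0.0644), 2 (0.0959) or 3 (0.105), and without MI-389-titled replicate 3 (0.0536).

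Transcription factors known to drive BH3-only genes formed the list with the largest absolute median difference among the 4 lists described, in both comparisons with DMSO. The lists were chosen with earlier results of these data known, so this ranking is a description only. Of 9 tested, with FOXO1 left untested near the floor, 7 rose and 2 fell in the libraries titled MI-389 (median 0.85), and none rose and 5 fell in those titled sunitinib (median −0.30). Of all tested genes, 28.5% rose and 28.3% fell in the former, and 2.37% rose and 16.9% fell in the latter. Set against each other, 8 of the 9 were higher and none lower with the MI-389 title than with the sunitinib title, beside 36.0% and 20.3% of all tested genes. Against DMSO, the sunitinib-titled calls of DDIT3 and FOXO3 were lost in several settings, and ATF4 was called higher after some scalings, as given below. JUN, an AP-1 factor, went from 6.59 ± 0.864 FPKM in DMSO to 794 ± 23.1 with the MI-389 title and 3.36 ± 0.534 with the sunitinib title (SD, n = 3). The stress factor ATF3 went from 9.96 ± 1.41 to 258 ± 3.30 FPKM with the MI-389 title, and DDIT3 (CHOP), known to act on BCL2L11 and BBC3, from 44.7 ± 3.37 to 244 ± 8.10 (limma adjusted p = 5.06e-08). ATF4, which drives PMAIP1 and DDIT3 in the known integrated stress response, stood at 671 ± 79.3 FPKM in DMSO, 1202 ± 22.3 with the MI-389 title and 759 ± 17.3 with the sunitinib title. FOXO3, which is known to drive BCL2L11, rose 2.20-fold with the MI-389 title (14.0 ± 0.807 to 30.8 ± 1.86 FPKM, adjusted p = 1.02e-06), where BCL2L11 fell. MYC was among the others that rose, and E2F1 and TP73 fell. These are levels of messenger RNA, and whether any of these factors acted on a member was not tested.

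With the sunitinib title, the factors that fell were JUN, E2F1, MYC, DDIT3 and FOXO3. E2F1, a cell cycle factor, was 1.57-fold lower (limma adjusted p = 0.00127) and MYC 1.40-fold lower (adjusted p = 0.00274). DDIT3 was 1.23-fold lower (adjusted p = 0.0347), and its call was lost without DMSO replicate 3 (0.100), sunitinib-titled replicate 1 (0.109) or 2 (0.121), or MI-389-titled replicate 1 (0.0516) or 3 (0.0561). The DDIT3 call was also lost after median centring (0.0705), quantile normalization (0.0933) or cyclic loess (0.143), with no filter (0.0940) and in the 6 libraries compared alone (0.0752). FOXO3 was 1.17-fold lower (adjusted p = 0.0461), a call lost on leaving out any library but DMSO replicate 2 or MI-389-titled replicate 2, with adjusted p of up to 0.128. The FOXO3 call was also lost after median centring (0.0624) or spike-in rescaling (0.0698), with a pseudocount of 5 (0.0596) and with no filter (0.0870). The same held for variance without a trend (0.0543) or robust (0.0523) and for the 6 libraries compared alone (0.0861). ATF4 was not called as deposited (0.18, adjusted p = 0.141) but was higher after median centring (0.27, adjusted p = 0.0109), quantile normalization (0.27) and cyclic loess (0.30). FOXO3, and TP73, E2F1 and MYC with the MI-389 title, are named only to complete the counts.

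**Figure D4:**
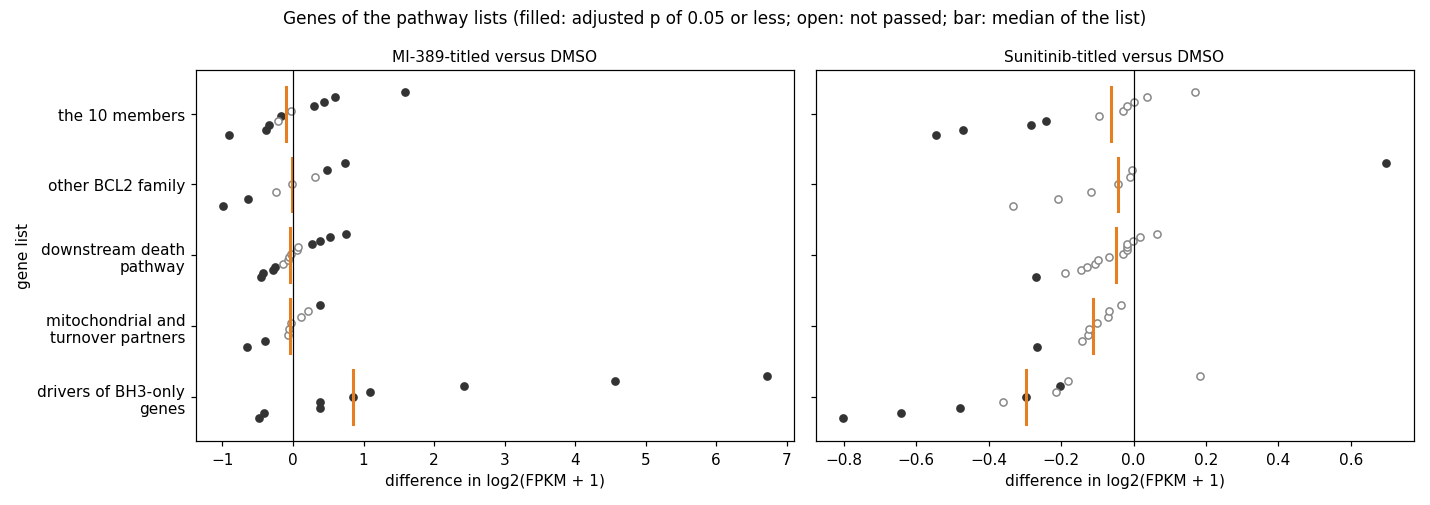
Log2(FPKM + 1) differences of the 10 members and of the tested genes of 4 related lists, in MI-389 against DMSO (left) and sunitinib against DMSO (right), groups by title and x axes on different scales, with filled points for called genes, open points for the rest and a bar at each median. The list of transcription factors had medians of 0.85 and −0.30, and the medians of the members and the other lists lay between −0.11 and −0.019.

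Gene-level FPKM sums isoforms of opposite function for some members. In GENCODE v29, BCL2L11 has 17 coding transcripts with 16 distinct coding regions, BCL2L1 has 9 with 6, and MCL1 has 3 with 3. The long and short forms of BCL2L1 (BCL-XL and BCL-XS) and of MCL1 cannot be told apart in these values. In the same annotation, noncoding genes share exon sequence with BCL2L1 (ABALON), BCL2L11 (MIR4435-2HG) and MCL1 (ADAMTSL4-AS1), and the annotation used for the deposited values is not given in the sources used here.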

How the data were processed

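RNA of MOLT4 cells was isolated with a miRvana kit, ERCC spike-in RNA was added by cell number, and a SMARTer v4 low-input kit was used on polyA RNA, per the labels' protocols. The authors deposited FPKM values, with 1 column per library; the submitters' processing notes list HISAT, Cufflinks 2.0.0 and hg19, and the annotation, and any normalization across libraries, were not given in the sources used here. Of 23713 rows, 92 were spike-in RNAs. Median spike-in values stayed within −0.04 to 0.03 of the DMSO mean on the log2 scale in every library, and undetected rows stood near 0.1 FPKM. Depth is unknown, and FPKM allows no counting interval.

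The members, the gene lists and the rule for named genes were chosen with earlier results of these data known. The rule names all members, up to 4 called genes with the smallest adjusted p per list and comparison, ATF4 and DDIT3, and 3 genes of like profile (mean of at least 5 FPKM) for each of 3 members; some named genes and 1 list are not reported here. The 12301 genes that averaged 1 FPKM or more entered limma 3.58.1 (R 4.3.3) as log2(FPKM + 1): the model held 9 libraries in 3 groups by title and a variance trend, p-values were two-sided with Benjamini-Hochberg adjustment, and calls were made at 0.05. An exact permutation test of 3 against 3 libraries cannot give a p below 0.1, so none was run. Correlations left out 246 rows of short non-coding RNAs. No libraries held identical values. Settings tried were a pseudocount of 0.1 or 5, a filter of 5 FPKM or none, median centring, quantile normalization, cyclic loess, rescaling to 16 spike-in RNAs, fits of only the 6 libraries compared, the replicate number as a block, variance without a trend or robust, naming by the source field, and leaving out each library. Rescaling of summed levels was added after the data were seen. Promoters came from RefSeq (GRCh38.p14) by symbol. Figures were drawn with matplotlib 3.10.9.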

Additional observations from a re-analysis of the deposited data

How the results depend on the processing

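Naming the treated groups by the source field exchanges them: MI-389 against DMSO then had 4 called members and sunitinib 8. For MI-389 the log2 differences became −0.54 for BCL2, 0.0023 for BCL2L1, −0.019 for MCL1, −0.096 for BBC3, −0.24 for PMAIP1, 0.17 for BAK1 and 0.036 for BAD, all with a turned sign. The sign stayed for BCL2L11 (−0.47), BID (−0.28) and BAX (−0.029), but BAX was then no longer called (limma adjusted p = 0.828). For sunitinib the log2 differences became 0.30 for BCL2, −0.17 for BCL2L1, 0.45 for MCL1, 0.60 for BBC3, 1.58 for PMAIP1, −0.029 for BAK1 and −0.21 for BAD. They were −0.91 for BCL2L11, −0.38 for BID and −0.34 for BAX. Between the treated groups all signs turned: BCL2 −0.84, BCL2L1 0.17, MCL1 −0.46, BCL2L11 0.44, BBC3 −0.70, PMAIP1 −1.82, BAX 0.31, BAK1 0.20, BID 0.099 and BAD 0.24. Summed levels became 194 (guardians), 250.0 (BH3-only) and 224 FPKM (effectors) for MI-389, and 222, 347 and 184 for sunitinib. Genes outside the family were not recomputed under this naming.

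Cyclic loess moved BAK1 in MI-389 against DMSO to 0.0069. For sunitinib against DMSO, MCL1 moved to 0.067 after median centring, 0.11 after quantile normalization and 0.11 after cyclic loess, BAX to 0.058, 0.084 and 0.11, and the number of called members to 8 after quantile normalization and 8 after cyclic loess. Median centring, chosen for summed levels after the data were seen, gave 209.8 (MI-389) and 206 (sunitinib) FPKM for guardians, 327 and 266 for BH3-only genes, and 237 for effectors with the sunitinib title. Each scaling moves every gene of a library by construction.

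Leaving out 1 library gave 6 to 8 called members in MI-389 against DMSO, 2 to 5 in sunitinib against DMSO and 6 to 9 between the treated groups. Ranges that crossed 0 were −0.095 to 0.041 for BAK1 in MI-389 against DMSO and, in sunitinib against DMSO, −0.051 to 0.045 for BCL2L1, −0.075 to 0.027 for MCL1, −0.19 to 0.048 for BBC3, −0.10 to 0.0086 for BAX and −0.058 to 0.13 for BAD.

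Correlations of deviations between samples with the same replicate number ran from −0.084 to 0.18 over 9 pairs. Of these, 2 pairs correlated best within their own number. With 3 libraries per group, this cannot show whether samples of the same number shared a culture or batch. With the replicate number as a block, 8, 4 and 7 members were called in the 3 comparisons.

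Of all values recomputed under other settings, 918 kept direction and side of the threshold, 36 fell short of it, 18 newly passed it and 31 turned direction. With 1 library left out the numbers were 650, 75, 3 and 10. Most of the 31 turns came from naming by the source field, which exchanges the groups without a new fit, and only the rest from other processing. BBC3 could not be tested with a filter of 5 FPKM, nor in the 6 libraries of sunitinib and DMSO alone. Depth being unknown, the counting error of low values such as those of BBC3 and HRK is unknown too.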
